A study of Rattus norvegicus with 16 samples.

Results

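The genes described here were the 150 whose level differed most between kidney libraries that shared a treatment and an age. They came from RNA sequencing of total kidney RNA of male Wistar rat pups, and were taken from 12366 eligible genes (1.21%) in a table of 26689. A gene was eligible when its mean regularised-log (rlog) value over the 16 libraries was at least 5 and below 12 and its mean in the sham groups differed between the ages by less than 1. The rlog value is a log2 expression level scaled for library depth, so a difference of 1 is a doubling. The 150 members had the largest pooled within-group standard deviation (SD), the root of the mean of the 4 group variances. All numbers that describe this spread are therefore descriptions, not tests. Of 6 identifiers that the rule leaves out, 2 had an SD past the same limit.

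On day 1 or day 14 of life the pups underwent left-sided uninephrectomy (UNX, removal of a kidney) or a sham procedure, and kidney was collected 3 days later. The groups were sham day 1, UNX day 1, sham day 14 and UNX day 14, each with 4 libraries. No allele is named in the labels, all groups share strain and sex, and isoflurane is the only agent named, for UNX. Neither litters nor a separate pup for each library can be read from the labels, so the members are called variable between libraries of a group rather than between littermates. The spread behind each p-value is that between these samples, which may be technical.

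In the rat, new nephrons are still formed after birth, and the kidney that remains after the loss of its partner enlarges. A kidney homogenate mixes tubule, vessel, immune and stromal cells, so fewer cells of a type and less RNA per cell cannot be told apart in such samples. Genes whose levels rise and fall together across samples are commonly read as sets with a shared cell of origin or a shared signal. Members appear under Ensembl identifiers: no names accompany them in the table, and 0 of the 26689 identifiers matched the reference tables. What the members encode was not analysed here, and the labelled tissue could not be checked against kidney markers.

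Some libraries stood apart over all genes. Sham day 1 library 3 and sham day 14 library 4 lay at 14.5 and 12.9 on the second principal component of 14845 tested genes, and the other 14 lay between −5.95 and 2.58. UNX day 14 libraries 3 and 1 held the highest value in 47.9% and 20.2% of 5051 near-silent genes, where an even share would be 6.25%. Library read totals were not used here. The order of depth, read from the values given to undetected genes, put sham day 14 library 3 first and sham day 1 library 2 last.

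The spread of the members began where the bulk of the genes ended. Their pooled SD ran from 0.251 to 1.12 with a median of 0.304, against a median of 0.0905 for all eligible genes, a ratio of 3.36. At the limit the values were continuous. The last 3 genes inside stood at 0.253, 0.252 and 0.2512 (ENSRNOG00000011300), and the first 3 outside at 0.2512 (ENSRNOG00000006873), 0.2501 and 0.2496. From the lowest to the highest of all 16 libraries a member spanned a median of 1.35 on the log2 scale, a 2.55-fold range. This span runs across ages and treatments, so differences between the groups enter it. The span reached 1 in 131 of the 150 and 2 in 17, and in all eligible genes it reached 1 in 6.09%. Members were expressed at low and high levels alike, with means from 5.05 to 11.73. Their median mean of 8.03 lay under the 8.77 of eligible genes, and 34% of members had a mean under 7, against 19.1%. The rlog transform shrinks weakly expressed genes towards their mean, which narrows the spread of such members.

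**Figure D1:**
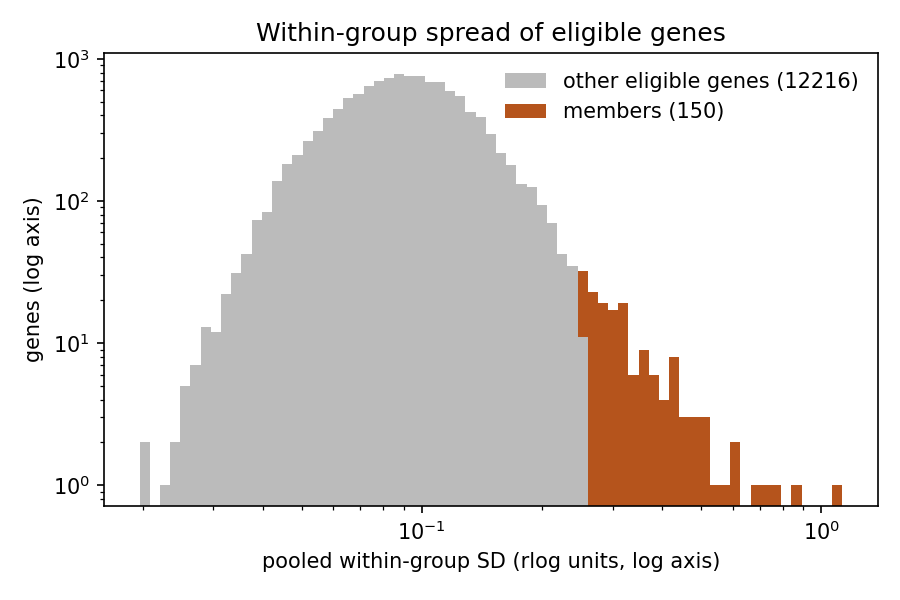
Histogram of the pooled within-group SD (x axis, rlog units, log axis) over eligible genes (y axis, number of genes, log axis). Grey bars are the 12216 genes that were not taken and orange bars, stacked on them, the 150 members, which begin at an SD of 0.251 with no gap and reach 1.12.

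A broad spread was not the property of 1 group alone. Of the 150 members, 57 lay in the top 10% of eligible genes for SD in all 4 groups, 67 in 3 groups, 22 in 2 and 4 in 1. The rule pooled the variances of these same 4 groups, so these counts are a description of the choice. The median member SD was 0.295 in sham day 1, 0.202 in UNX day 1, 0.366 in sham day 14 and 0.254 in UNX day 14 kidneys. Eligible genes as a whole stood at 0.0901, 0.0672, 0.0889 and 0.0779 in the same order, so the sham groups were the more variable at both ages in both sets. After surgery on day 14 the SD was larger in sham than in UNX kidneys for 112 members (74.7%), against 59.3% of eligible genes. After surgery on day 1 this held for 93 members (62%), against 67.2%. With library 3 dropped, the median member SD in sham day 1 kidneys was 0.195, under that of UNX day 1. In sham day 14 kidneys it was 0.273 when library 4 was dropped and 0.314 when library 3 was, both above that of UNX day 14. Dropping a library that often lies far from its group mean lowers the SD by itself, and no UNX library was dropped here. The changed order on day 1 therefore does not show that library 3 gave the sham excess.

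The spread at one age was compared with the spread at the other, in libraries whose spread had no part in the choice. The rule was applied with the SD of the 8 day 1 libraries alone, while eligibility still used all 16 libraries. The 150 genes it took had a median SD of 0.217 in the 8 day 14 libraries, 2.44 times the 0.0887 of all eligible genes, and 104 of them (69.3%) lay in the top 10% there. In the other direction, the 150 genes taken on day 14 libraries had a median SD of 0.186 in day 1 libraries, 2.18 times the eligible median, with 108 (72%) in the top 10%. The 2 lists shared 50 genes (33.3% of each). Between treatments, lists taken on the sham and on the UNX libraries shared 69 genes (46% of each), and 126 of the sham list (84%) lay in the top 10% of the UNX libraries. Genes that varied most at 1 age thus mostly varied more than other genes at the other age as well, although the individual lists overlapped in part.

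**Figure D2:**
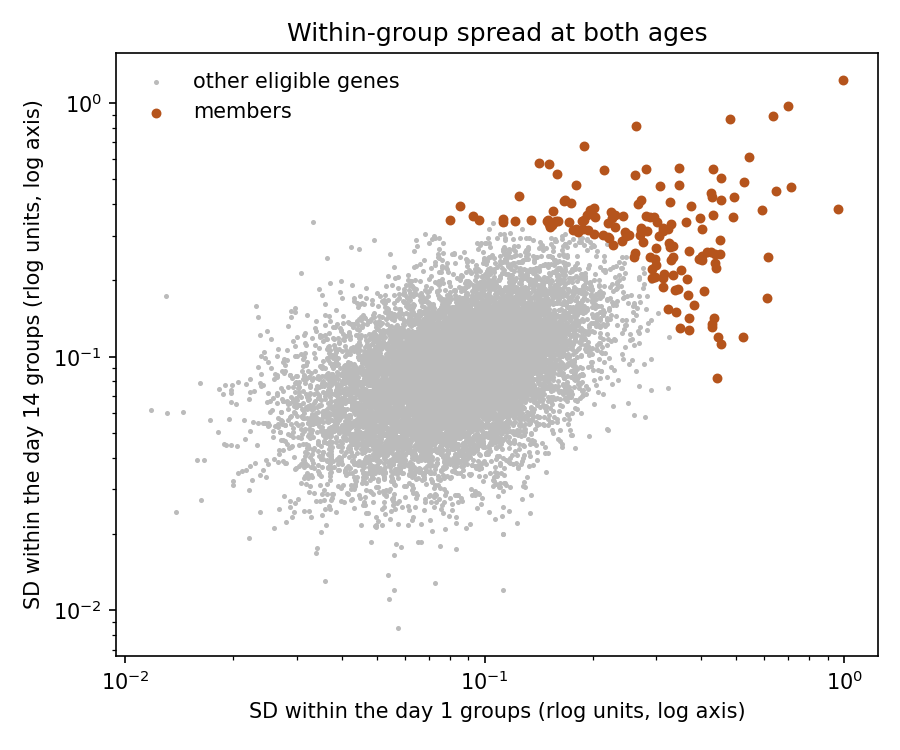
Each point is an eligible gene, placed by its SD within the day 1 groups (x axis) and within the day 14 groups (y axis), both in rlog units on log axes. Orange points are the 150 members, which lie along the upper right edge of the cloud, since the rule sums both variances.

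A small number of libraries gave much of the members' spread. For each member, the library furthest from its group mean was noted. This was sham day 1 library 3 in 35 members, sham day 14 library 3 in 28 and sham day 14 library 4 in 26. In all eligible genes these libraries were furthest in 12.7%, 8.82% and 12.3%. A sham library was furthest in 116 members (77.3%), against 67.2% of eligible genes, and UNX day 14 library 4 in 0. The leading library held a median of 30.1% of a member's within-group sum of squares, against 26.9% in eligible genes, and over 50% in 17 members (11.3%), against 2.06%. Of the 150 members, 120 were taken again when sham day 1 library 3 was dropped. The number was 121 for sham day 14 library 3, 127 for its library 4 and 133 to 146 for any other. With sham day 1 library 3 and sham day 14 library 4 both dropped, 103 were taken again.

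**Figure D3:**
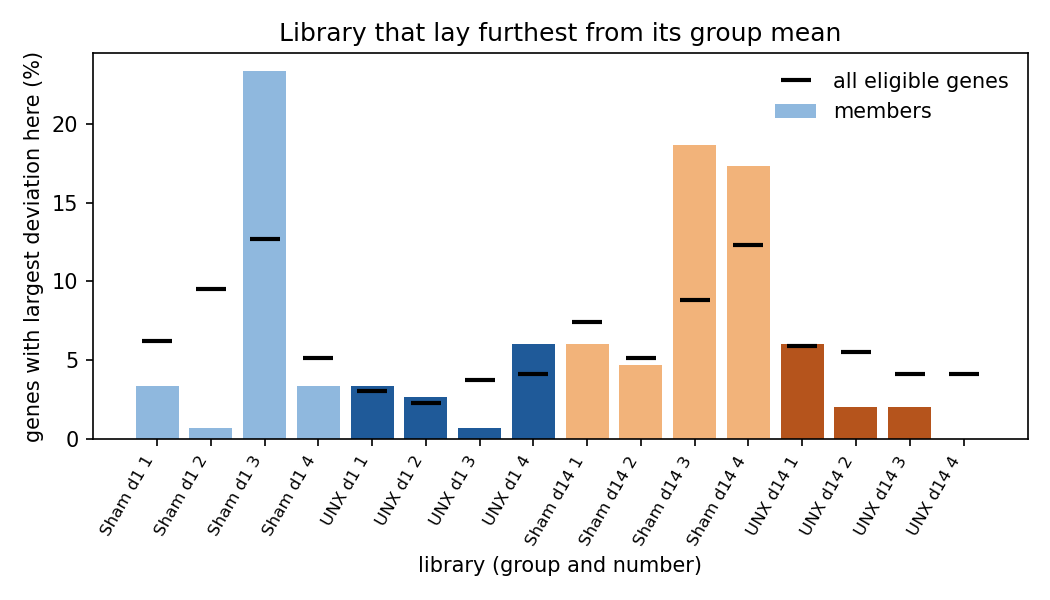
Share of genes (y axis, percent) for which each library (x axis, grouped by surgery and day) lay furthest from its group mean. Bars are the 150 members, coloured by group, and black dashes all eligible genes; sham day 1 library 3 leads with 35 members, followed by sham day 14 libraries 3 and 4 with 28 and 26.

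Members did not vary independently. After each value was set against its group mean, members were grouped by average linkage on the Pearson correlation over the 16 libraries, separated at a mean correlation of 0.5. In this way 98 of the 150 (65.3%) fell into 7 blocks of 5 or more, with 28, 21, 16, 14, 8, 6 and 5 members, and 52 fell into none. The correlation exceeded 0.8 in 2.77% of pairs of members and in 0.131% of pairs of eligible genes. These correlations are descriptions. Their points share libraries, and the members were chosen on the same deviations.

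**Figure D4:**
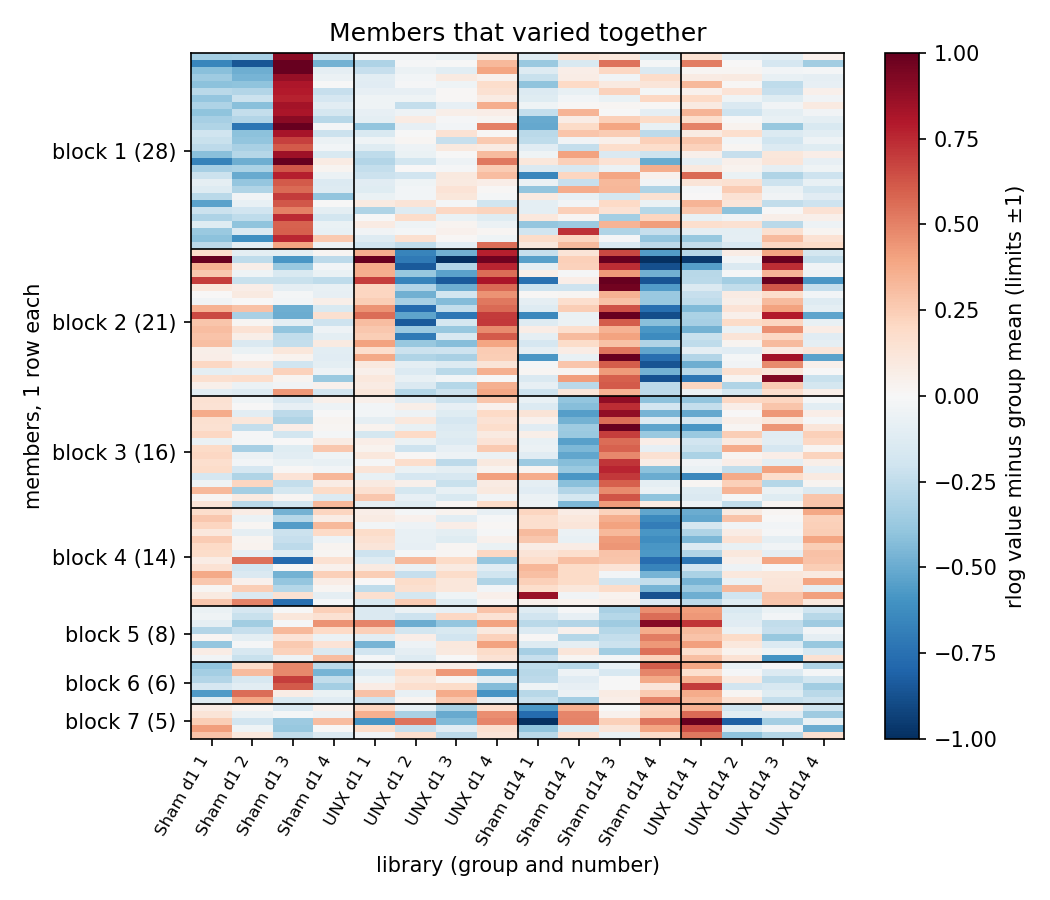
Heat map of the 98 members in blocks (rows, ordered by block) across the 16 libraries (columns, black lines between groups). Colour is the rlog value minus the group mean, red above and blue below, limited to ±1. Block 1 is red in sham day 1 library 3. Block 2 alternates between libraries of UNX day 1, sham day 14 and UNX day 14. Blocks 4 and 5 are opposed in sham day 14 library 4 and UNX day 14 library 1.

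Block 1 held 28 members that were high in a single library, sham day 1 library 3, where all 28 lay above the group mean. The mean deviation there was 0.79, a 1.73-fold excess, and ran from 0.40 to 1.98 over the members. The other sham day 1 libraries stood at −0.33, −0.36 and −0.11, and every library outside that group lay within −0.18 and 0.16. The strongest case was ENSRNOG00000029980, the fourth member by SD. It stood at 6.55, 6.35, 9.19 and 6.73 in sham day 1 libraries 1 to 4 and at 5.88, 6.18, 6.19 and 6.52 in UNX day 1 libraries. In sham day 14 libraries it stood at 6.18, 6.39, 7.09 and 6.53, and in UNX day 14 libraries at 7.06, 6.55, 6.37 and 6.19. Only the 9.19 of sham day 1 library 3 left the range of 5.88 to 7.09 that the other 15 libraries filled, and the groups otherwise overlapped.

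Among block 1, ENSRNOG00000019673 had the highest mean correlation with the rest of the block, at 0.805. It stood at 10.43, 10.45, 11.68 and 10.55 in sham day 1 libraries, and at 10.41, 10.41, 10.38 and 10.57 in UNX day 1 libraries. The sham day 1 libraries other than library 3 thus lay inside the range of the UNX libraries, 10.38 to 10.57. ENSRNOG00000015036 showed the same single excess, with 9.87, 9.80, 11.29 and 10.20 in sham day 1 libraries. Its values in the other 12 libraries ran from 9.71 to 10.34. Of the 28 members, 23 had their highest value of all 16 in sham day 1 library 3.

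Without sham day 1 library 3 the median correlation within block 1 fell from 0.73 to 0.33, 8 of the 28 stayed among the 150, and 7 still fell into a common block. The correlation was 0.91 over day 1 libraries and 0.24 over day 14 libraries. Outside the members, 81 of 12216 eligible genes (0.663%) followed the block mean with a correlation above 0.8. This library was the second shallowest, and the part of depth in the block was not tested.

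Block 2 held 21 members and was of another kind, since libraries of UNX day 1, sham day 14 and UNX day 14 were high or low. In sham day 1 libraries its mean deviation ran only from −0.14 to 0.25. The block took 7 of the 12 members with the largest SD. All 21 lay above the group mean in UNX day 1 library 1, sham day 14 library 3 and UNX day 14 library 3, and 20 did so in UNX day 1 library 4. None did so in UNX day 1 libraries 2 and 3 or in sham day 14 library 4, and 1 did so in UNX day 14 library 1. The mean deviation ran from −0.63 in sham day 14 library 4 to 0.73 in sham day 14 library 3, within the same group.

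ENSRNOG00000010079 had the largest SD of all members, 1.12. It stood at 7.84, 6.49, 6.17 and 6.48 in sham day 1 libraries 1 to 4 and at 8.71, 6.96, 6.36 and 8.64 in UNX day 1 libraries. In sham day 14 libraries it stood at 6.98, 7.76, 9.43 and 5.92, and in UNX day 14 libraries at 6.19, 7.13, 8.39 and 6.91. From the lowest to the highest library, both sham day 14, this was a span of 3.51 or 11.4-fold. Every group overlapped every other. The group means were 6.75 ± 0.75 in sham and 7.67 ± 1.19 in UNX day 1 kidneys, and 7.52 ± 1.48 in sham and 7.16 ± 0.92 in UNX day 14 kidneys (SD, n = 4 each).

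The next members by SD showed the same libraries as high. ENSRNOG00000015086 stood at 5.61, 4.69, 4.69 and 4.66 in sham day 1, at 6.29, 4.94, 4.75 and 6.41 in UNX day 1, at 4.78, 5.60, 7.08 and 4.67 in sham day 14 and at 5.04, 4.97, 6.51 and 4.73 in UNX day 14 kidneys. In 10 libraries it lay between 4.66 and 5.04, and in the other 6 it lay between 5.60 and 7.08. Its largest gap between neighbouring values was a higher one, 0.68, from 5.61 to 6.29, with 12 libraries below it. ENSRNOG00000010805 stood at 8.77, 7.79, 7.62 and 8.28 in sham day 1 and at 9.21, 8.12, 7.93 and 9.35 in UNX day 1 kidneys. In day 14 kidneys it stood at 8.12, 8.69, 10.36 and 7.88 after sham surgery and at 8.15, 8.52, 9.26 and 7.93 after UNX. Its highest library was again sham day 14 library 3, at 10.36, and UNX day 1 libraries 1 and 4 were again above libraries 2 and 3.

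Block 2 kept its correlation when its strongest library was left out. The median was 0.80 over all 16 libraries and 0.77 without sham day 14 library 3, and it was 0.82, 0.87, 0.83 and 0.83 over day 1, day 14, sham and UNX libraries alone. Of the 21 members, 17 stayed among the 150 and 20 still fell into a common block without that library. When blocks were drawn anew on the 8 day 14 libraries, the largest held 30 members, among them all 21. Their median correlation in the 8 day 1 libraries, which had no part in that grouping, was 0.63, where all pairs of members had a median of 0.043. A block of 30 members drawn on day 1 libraries, with 18 of the 21, had a median correlation of 0.55 in day 14 libraries. The first block drawn on day 1 libraries, which held 26 of the 28 members of block 1, had 0.15 there. A block of 22 members drawn on day 14 libraries, with all 14 of block 4, had 0.085 in day 1 libraries. A block of 14 drawn on day 1 libraries, with 7 of block 4, had 0.62 in day 14 libraries. The 4 libraries in which block 2 was highest held ranks 1, 5, 6 and 8 of 16 in depth, where rank 1 is the deepest, and the part of depth was not tested. They included UNX day 14 library 3, whose near-silent genes were raised.

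Block 3 held 16 members and was high in the deepest library, sham day 14 library 3, where all 16 lay above the group mean by 0.42 to 1.00. In sham day 14 library 2 none did, with a mean deviation of −0.43. ENSRNOG00000011647 stood at 10.30, 9.98, 11.26 and 9.96 in sham day 14 kidneys and at 9.67, 10.27, 10.28 and 10.04 in UNX day 14 kidneys. In day 1 kidneys it ran from 9.61 to 10.33, so the 11.26 had no counterpart in any group. ENSRNOG00000011821 stood at 7.84, 7.16, 8.59 and 7.24 in sham day 14 kidneys, and at 6.87, 7.38, 7.81 and 7.44 after UNX. Of the 16 members, 15 had their highest value in this library. Without it the median correlation fell from 0.69 to 0.39, 3 of the 16 stayed among the 150, and 6 still fell into a common block. The mean of block 3 was correlated with that of block 2 at 0.65 over the 16 libraries, both being highest in this library. The part of its depth was not tested.

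Blocks 4 and 5 moved against each other in the same libraries. Block 4, with 14 members, was low in sham day 14 library 4 (mean deviation −0.56), UNX day 14 library 1 (−0.37) and sham day 1 library 3 (−0.33), and 0 of the 14 lay above the group mean in the first and the second. Block 5, with 8 members, was high in sham day 14 library 4 (0.50) and UNX day 14 library 1 (0.38), where all 8 lay above. Their means were correlated at −0.86 over the 16 libraries. These are the library that stood apart on the second component at the older age and a library with raised near-silent genes. The part of near-silent genes in these blocks was not tested.

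For block 4, ENSRNOG00000013916 gave the highest correlation with the other members. It stood at 10.89, 10.79, 10.24 and 10.93 in sham day 1, at 10.98, 10.90, 10.95 and 10.83 in UNX day 1, at 10.26, 10.12, 10.28 and 9.53 in sham day 14 and at 9.36, 9.94, 9.88 and 10.24 in UNX day 14 kidneys. Sham day 1 library 3, sham day 14 library 4 and UNX day 14 library 1 were the lowest of their groups, while the UNX day 1 values lay between 10.83 and 10.98. For block 5, ENSRNOG00000017798 stood at 5.62, 5.37, 5.71 and 6.16 in sham day 1 and at 6.34, 5.36, 5.47 and 6.26 in UNX day 1 kidneys. At the older age it stood at 5.22, 5.19, 5.13 and 6.40 after sham surgery and at 6.07 in UNX library 1, with 5.24 the highest of the other 3 UNX libraries. In each day 14 group 1 library was high and the other 3 were close together. These high values were 6.40 and 6.07. Without sham day 14 library 4 the median correlation fell from 0.70 to 0.54 in block 4 and from 0.65 to 0.53 in block 5. Then 7 of the 14 and 3 of the 8 stayed among the 150. A common block still held 10 of the 14, but 0 of the 8, so that block 5 was no longer found. The median correlation was 0.46 over day 1 and 0.81 over day 14 libraries in block 4, and 0.46 and 0.82 in block 5. Block 4 had the most followers outside the members, 163 of 12216 eligible genes (1.33%) with a correlation above 0.8 with its mean.

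The smallest blocks combined libraries of several groups. Block 6, with 6 members, was high in sham day 14 library 4, UNX day 14 library 1 and sham day 1 library 3, with mean deviations of 0.39, 0.38 and 0.37. Block 4 was low in the same libraries, and the means of blocks 4 and 6 were correlated at −0.78 over the 16 libraries. ENSRNOG00000007137 of block 6 stood at 10.15, 10.81, 10.97 and 10.03 in sham day 1 and at 10.62, 10.94, 11.19 and 10.27 in UNX day 1 kidneys. At the older age its values ran from 9.93 to 10.69. Without sham day 14 library 4, 5 of the 6 members stayed among the 150 and 3 still fell into a common block. Block 7, with 5 members, was high in UNX day 14 library 1 (0.66) and low in sham day 14 library 1 (−0.66). Its ENSRNOG00000030016 stood at 5.66, 7.43, 7.17 and 7.46 in sham day 14 and at 7.45, 5.40, 5.88 and 6.15 in UNX day 14 kidneys. In day 1 kidneys it lay between 5.35 and 6.49. In sham day 14 kidneys 3 libraries were high and 1 was low, and after UNX 1 was high and 3 were low, so that the ranges overlapped. Without UNX day 14 library 1, 4 of the 5 members stayed among the 150, but 0 fell into a common block.

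**Figure D5:**
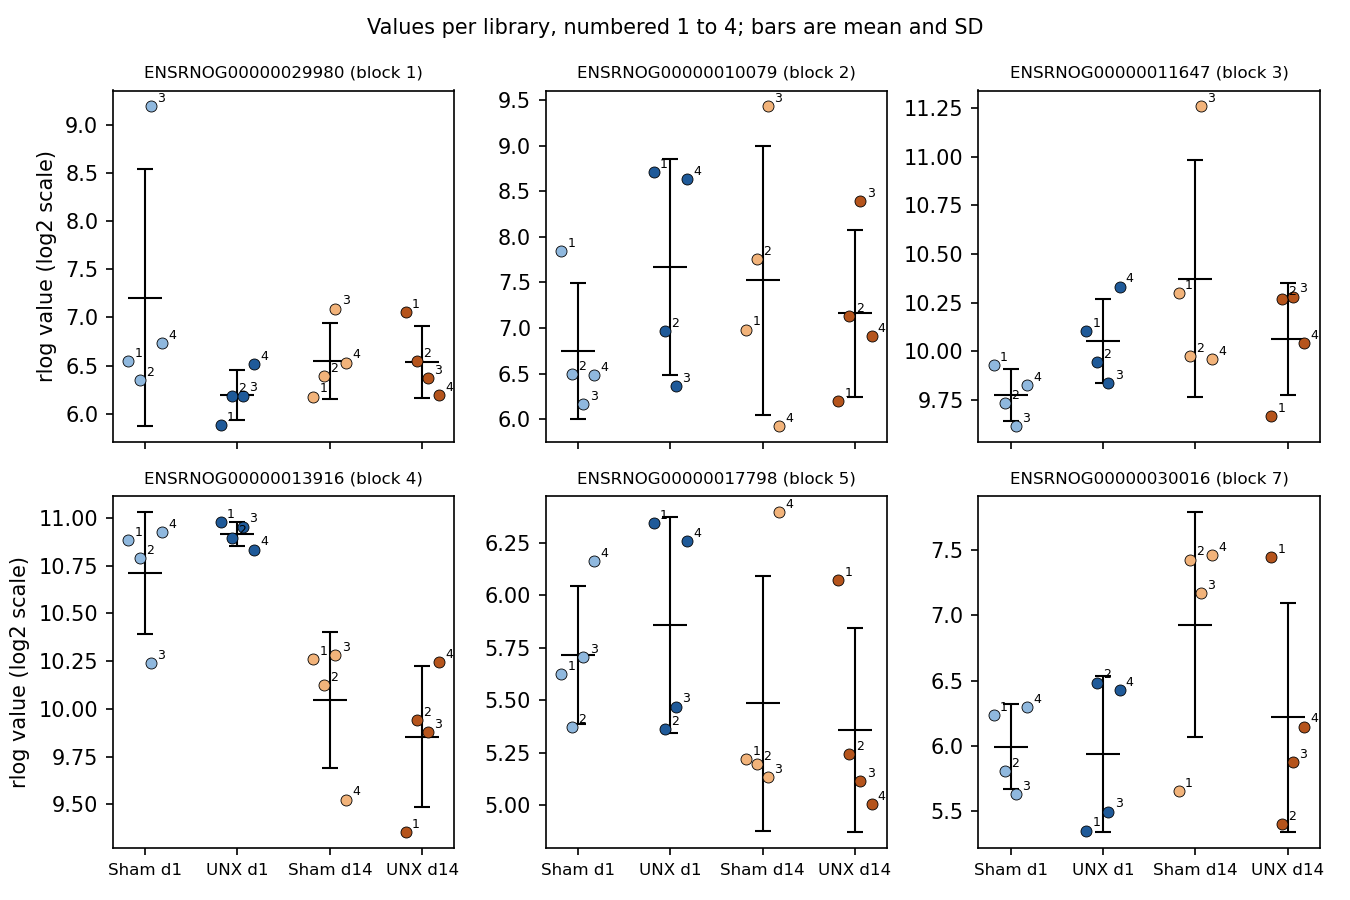
Rlog values (y axis, log2 scale) of 6 members in every library, by group (x axis), with each point numbered by library and bars for the mean and SD (n = 4). ENSRNOG00000029980 is high in sham day 1 library 3 alone at 9.19, whereas ENSRNOG00000010079 spreads within all 4 groups, from 5.92 to 9.43.

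Of the 52 members outside the blocks, the most variable were ENSRNOG00000013062 and ENSRNOG00000016220. The first stood at 8.37, 7.83, 9.29 and 8.20 in sham day 1, at 7.69, 8.57, 8.68 and 7.01 in UNX day 1, at 7.47, 8.77, 8.08 and 8.16 in sham day 14 and at 8.33, 7.74, 8.01 and 7.40 in UNX day 14 kidneys. The second stood at 9.13, 9.27, 7.53 and 7.72 in sham day 1 kidneys, 2 high and 2 low, and at 8.67, 8.66, 8.68 and 8.54 after UNX. The UNX day 1 values of ENSRNOG00000016220 lay between 8.54 and 8.68, in the gap between its high and low sham values. In day 14 kidneys it stood at 8.26, 8.14, 8.02 and 7.19 after sham surgery and at 7.85, 8.17, 7.19 and 7.84 after UNX.

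Members at separate levels with nothing between were few. The largest gap between neighbouring values took at least 0.5 of the whole range in 9 members. In 8 of these 1 library stood alone, in sham day 1 library 3 for 5 and in sham day 14 library 3 for 3. The ninth, ENSRNOG00000007607, was high in sham day 1 library 3, at 9.56, and in sham day 14 library 2, at 9.81, and lay between 8.59 and 8.95 in the other 14 libraries.

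Whether the members responded to UNX was tested with limma over all 14845 tested genes. The contrasts of UNX with sham had no part in choosing the members, but their SD did, so their intervals were wide by choice. After surgery on day 1, 0 of the 150 passed (limma, Benjamini-Hochberg adjusted p under 0.05), where 0.00674% of all tested genes did. At an unadjusted p under 0.05 there were 17 (11.3%), against 7.15% of all. Of these, 11 had a higher mean after UNX, against 3.37%, and 6 a lower one, against 3.77%. After surgery on day 14, 0 passed in limma against 0.0539% of all (0.0337% higher and 0.0202% lower). At an unadjusted p under 0.05 there were 14 (9.33%), against 14.4% of all, 4 of them higher, against 7.85%, and 10 lower, against 6.51%. The smallest adjusted p among members was 0.423 on day 1 and 0.150 on day 14. The 4 UNX values lay clear of the 4 sham values in 3 members (2%) on day 1, against 4.51% of all tested genes, and in 3 (2%) on day 14, against 6.97%. The median half-width of the 95% limma interval, which is not adjusted for the number of genes, was 0.37 for members and 0.14 for all. A difference smaller than 0.37 could thus not be detected in a typical member, and the adjusted test needed a larger one.

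Means of 4 libraries differ more by chance in genes with a larger SD, so large differences among members follow in part from how they were chosen. On day 1 a difference of at least 0.5 was found in 19 tested genes (0.128%), of which 13 were members (12 without sham day 1 library 3). On day 14 it was found in 12 (0.0808%), of which 4 were members. None of these members passed the test. ENSRNOG00000029401 of block 2 had the largest rise in mean on day 1, 1.03 (SE 0.33, 95% interval 0.34 to 1.72, limma adjusted p = 0.525). The largest fall in mean was that of ENSRNOG00000029980, −1.01 (95% interval −1.88 to −0.14, limma adjusted p = 0.641), from 7.20 ± 1.33 in sham to 6.19 ± 0.26 in UNX kidneys (n = 4 each). Without sham day 1 library 3 that difference was −0.35.

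The differences of blocks 1 and 3, and of block 2 on day 14, changed when a single library was left out. In block 1, 27 of 28 members had a lower mean after UNX on day 1, with a median difference of −0.28. Without sham day 1 library 3 there were 19 lower and 9 higher, with a median of −0.026. In block 3, all 16 had a lower mean after UNX on day 14, with a median of −0.31, and without sham day 14 library 3 it was 11, with a median of −0.036. In block 2, 17 of 21 had a lower mean after UNX on day 14, with a median of −0.092. Without sham day 14 library 3 the direction turned, with 3 lower and a median of 0.15, and without library 4 all 21 were lower, with a median of −0.26. On day 1, where sham day 14 libraries play no part, 20 of the 21 members of block 2 had a higher mean after UNX, with a median of 0.39. Block 2 also held 7 of the 11 members that were higher at an unadjusted p under 0.05, and none of its members passed the adjusted test (smallest limma adjusted p = 0.423). The median ran from 0.25, without UNX day 1 library 4, to 0.55, without UNX day 1 library 3. Each time a day 1 library was left out, 19 or 20 members were higher. The mean of block 2 stood at 7.495 and 7.679 in UNX day 1 libraries 1 and 4. In UNX day 1 libraries 2 and 3 it stood at 6.735 and 6.788, inside the sham day 1 range of 6.575 to 6.959. Of the UNX day 1 libraries, only 1 and 4 thus lay above the sham day 1 range. Leaving out 1 library always kept library 1 or 4, so the counts of 19 or 20 do not show a rise in libraries 2 and 3. Members of a block are not separate evidence, since they share the deviation of the same library. Over all tested genes the median differences were −0.0025 on day 1 and −0.00026 on day 14. The difference between the UNX effects at the 2 ages passed in 0 members and 0% of all tested genes, with 16 members (10.7%) at an unadjusted p under 0.05 (limma), against 10.7% of all. Of these 16, 3 were higher (2% of members), against 5.75%, and 13 lower (8.67%), against 4.93%. Among the 13 lower were 6 of block 2 and 5 of block 3, whose day 14 differences changed without sham day 14 library 3. A difference of at least 0.5 between the effects was found in 69 genes (0.465%), 26 of them members.

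Age was compared in the UNX kidneys, since the rule had used the sham means for age. Age and any batch that follows the surgery day cannot be told apart. Between UNX day 1 and UNX day 14, 58 of the 150 members (38.7%) passed the limma test, against 45.9% of all tested genes. Of these, 35 (23.3%) were higher at the older age, against 23.1%, and 23 (15.3%) lower, against 22.9%. A difference of at least 0.5 was found in 56 members (37.3%), against 8.72%. The median size was 0.34 in members and 0.14 in all. The larger size in members cannot be told apart from their choice for a large SD.

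ENSRNOG00000047369 of block 4 rose most with age in UNX kidneys, from 5.35 ± 0.14 to 6.64 ± 0.42 (n = 4 each), a difference of 1.29 (SE 0.24, limma adjusted p = 0.00024). Its values were 5.51, 5.17, 5.30 and 5.40 on day 1 and 6.15, 6.44, 6.92 and 7.04 on day 14, without overlap. In sham day 14 kidneys it stood at 6.99, 6.09, 6.16 and 5.26, and the last, library 4, lay within the day 1 range. ENSRNOG00000000963, also of block 4, fell from 8.06 ± 0.13 to 6.94 ± 0.23 (n = 4 each), a difference of −1.12 (SE 0.16, limma adjusted p = 1.03e-05). Its values were 8.25, 7.99, 7.96 and 8.05 on day 1 and 6.63, 7.01, 6.92 and 7.18 on day 14. By block, against the 23.1% higher and 22.9% lower of all tested genes, 7 of 28 members of block 1 were higher at the older age and 0 lower. Of the 21 in block 2, 1 was higher and 4 lower, and of the 16 in block 3, 2 were higher and 3 lower. Of the 14 in block 4, 1 was higher and 7 lower, and of the 8 in block 5, 5 were higher and 0 lower. Blocks 6 and 7 had 2 higher each, with 1 and 0 lower, and the 52 members outside blocks had 15 higher and 8 lower.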

How the data were processed

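The deposited table holds 1 regularised-log value (log2 scale) per Ensembl rat gene and library, as its name and values show. Per the submitters' processing notes, the tools were DESeq2, featureCounts, Subread 1.5.1, STAR 2.4.0 and BWA 0.7.14, with neither role nor order. Not given in the sources used here: genome build, annotation, use of strand. Near-identical, overlapping and antisense genes are therefore uncertain. Each column headed CO was read as the sham library with its day and number. No 2 libraries held identical values.

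All 14845 genes whose mean reached 3 were tested with limma 3.58.1 in R 4.3.3, with 1 mean per group (12 residual degrees of freedom), a mean-variance trend and Benjamini-Hochberg adjustment of two-sided p-values. Spread and blocks came from scipy 1.17.1, pandas 2.3.3 and numpy 2.4.6 under Python 3.11.15. Choice, blocks and test were tested on simulated data. The order of depth rests on 151 rows in which a single library stood far above 15 nearly equal values. Absolute depth is unknown, so no counting interval was computed.

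The members, lists and tests were chosen with earlier results of these data known. Identifiers could be named if they were among the 12 largest SDs, passed a test (up to 10 a direction by size), were among the 3 most correlated of a block, stood at separated levels, or lay next to the SD limit. Not all of them are printed, and 2 are printed for passing a test. The fixed lists of cell type markers and pathways matched 0 identifiers and were not tested.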

Additional observations from a re-analysis of the deposited data

Results flagged for a closer look

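Groups of 4 libraries were screened for a value far from the other 3 with Dixon's test, over the 7 block means and the 21 members whose values were examined in full. Of 112 groups, 9 passed, and chance passes about 1 in 20. The members were chosen for their spread, so passing is no separate evidence. The mean of block 3 was 7.04 in UNX day 14 library 1, below the other 3 at 7.37 to 7.40. The mean of block 4 was 8.72 in UNX day 1 library 4, below the other 3 at 8.80 to 8.81.

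In sham day 1 library 3, ENSRNOG00000029980 stood at 9.19 and ENSRNOG00000019673 at 11.68, above the other sham day 1 values of at most 6.73 and 10.55. ENSRNOG00000015086 stood at 5.61 in sham day 1 library 1, above the other 3 at 4.66 to 4.69. ENSRNOG00000017798 stood at 6.40 in sham day 14 library 4, above the other 3 at 5.13 to 5.22. ENSRNOG00000030016 stood at 5.66 in sham day 14 library 1, below the other 3 at 7.17 to 7.46. ENSRNOG00000016220 stood at 8.54 in UNX day 1 library 4, below the other 3 at 8.66 to 8.68. ENSRNOG00000007607 stood at 9.81 in sham day 14 library 2, above the other 3 at 8.78 to 8.90.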

How the results depend on the processing

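The counts of 0 members for both UNX comparisons and for their difference were 0 under all 19, 19 and 26 alternatives. At most 9 (day 1), 90 (day 14) and 5 (difference) of all tested genes passed in any alternative. A count of 0 among 150 members is near that share, so it says little about the members. With a replicate block the 3 counts of members were also 0, and 58 members passed for age in UNX kidneys, as without the block. Over all tested genes the correlations of same-numbered libraries ran from −0.23 to 0.12, and the best match carried the same number in 4 of 24 cases. Over the members they ran from −0.50 to 0.43. Between sham and UNX day 1 they were 0.34, 0.048, 0.22 and 0.18 over the members. Not every pair exceeded 0.1, so the numbers were not taken to pair the libraries. For age in UNX kidneys the count ran from 41, without UNX day 14 libraries 1 and 3, to 80, in a fit of the compared groups alone. Of all 14845 tested genes, 5247 and 7376 passed in these 2 fits. With the SD taken from the day 1 groups alone, 98 of the 150 were kept, and from the day 14 groups alone 101. With the median absolute deviation 101 were kept, and with median centring 148. Leaving out 1 library at a time kept 120 to 146. The number in blocks ran from 72 with complete linkage to 118 when separated at 0.4, against 98. The day 14 spread of the genes chosen on day 1 libraries ran from 0.176 to 0.247. Fits without 2 libraries were chosen after seeing the data. With 4 libraries a group and shrunken values, small differences in these variable genes could not be detected.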
